A study of Mus musculus with 16 samples.

Results

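Large-conductance calcium- and voltage-activated potassium channels, called BK channels, were followed through the transcripts of 4 of their subunit genes in mouse ventricles. The genes were Kcnma1, Kcnmb1, Kcnmb4 and Lrrc55, read as 4 of the 33399 rows of a table of raw read counts, with symbols from GENCODE release M21. The group was chosen by the measured contrast of chronic kidney disease (CKD) with control, in which Lrrc55 stood out, so that contrast is given for all 4 genes as a description without a test. The ventricles came from 16 wild-type C57BL/6 mice, 4 in each of 4 groups: female CKD, male CKD, female control and male control. From 8 weeks of age the CKD mice were fed chow with 0.25% adenine in turns with plain chow for 6 weeks, and the control mice ate plain chow throughout. The regimen aimed at a median blood urea nitrogen of 40 to 70 mg/dL; the urea level that each animal reached was not analysed. The series, by its title, is about remodelling of the heart that favours arrhythmia.

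A BK channel is built from pore subunits encoded by Kcnma1, which open on depolarisation and on a rise of calcium inside the cell and let potassium out. Kcnmb genes encode beta subunits and a small group of Lrrc genes encodes gamma subunits; both kinds bind the pore and shift the calcium or voltage at which it opens, and they form no pore themselves. In arteries the channel with the Kcnmb1 subunit limits the contraction of smooth muscle cells. Kcnmb4 is best known from neurons, and in heart muscle cells BK channels have been described in the inner membrane of mitochondria.

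The libraries held 10203707 to 13626039 counts, so 1 count equalled 0.0713 to 0.101 CPM (the counts-per-million unit, after scaling of the libraries by TMM). The ventricular muscle genes Myh6 and Myl2 stood at 8430 to 17600 and 2510 to 4590 CPM, and the atrial light chain Myl7 at 26.4 to 250 CPM. In the library male CKD 4, 1411 genes lay more than 0.5 log2 units outside the range of the other 15 libraries, and in female control 2 there were 858 such genes; in the remaining libraries there were 22 to 232. The fold changes of Lrrc55, Kcnmb1 and Aplnr and some other results are given with and without these 2 libraries. The levels and fold changes of the marker lists are given only with them.

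The pore gene was close to the limit of detection. Of the 4 members, Kcnmb1 and Lrrc55 passed edgeR's filter on low counts (minimum count 10), and Kcnma1 and Kcnmb4 did not. Lrrc55 passed through the control libraries, with 7 to 27 counts each, as no CKD library had more than 9. Kcnma1 had 59 counts over all 16 libraries and Kcnmb4 had 11, with 0 counts of Kcnmb4 in 9 libraries. Kcnmb1 had 356 counts and Lrrc55 had 173.

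In the 250 bases before the RefSeq start (GRCm38.p6), Kcnma1 and Kcnmb4 carried 31 and 43 CG dinucleotides at 79.2% and 83.6% G+C. Lrrc55 and Kcnmb1 carried 3 and 1 at 54.0% and 50.8%. Over 32817 such windows of the mouse genome the median was 6.00 CG and 52.4% G+C, 92.1% held at least 1 CG, and 5.20% held as many as Kcnma1 or more. The search read CG, which is the same on both strands, and the CArG box of smooth muscle promoters, which itself holds no CG and had no match in any of the 4 windows; 1.47% of all windows hold one. The windows of Lrrc55 and Kcnmb1, the members that passed the filter, are shown 5′ to 3′ in the direction of the gene, with each CG in capitals. The Lrrc55 window is chr2:85198751-85199000 on the minus strand, and the Kcnmb1 window is chr11:33962763-33963012 on the plus strand.
Lrrc55: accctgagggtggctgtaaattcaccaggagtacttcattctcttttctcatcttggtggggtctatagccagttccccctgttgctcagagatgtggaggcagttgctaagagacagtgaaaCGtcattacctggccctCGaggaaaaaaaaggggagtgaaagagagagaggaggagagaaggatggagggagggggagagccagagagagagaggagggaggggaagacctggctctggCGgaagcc
Kcnmb1: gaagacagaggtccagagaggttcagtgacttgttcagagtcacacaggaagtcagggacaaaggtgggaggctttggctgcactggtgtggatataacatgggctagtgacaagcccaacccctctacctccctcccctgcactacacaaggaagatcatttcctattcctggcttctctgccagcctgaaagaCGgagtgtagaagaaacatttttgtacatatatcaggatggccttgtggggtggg
The RefSeq start of Kcnmb1 is that of GENCODE M21, whereas the RefSeq start of Lrrc55 lies 1553 bases upstream of the GENCODE one. The RefSeq starts of Kcnma1 and Kcnmb4 lie 10286 and 355 bases inside the GENCODE genes, so their windows are within the annotated gene.

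Per exon length, Kcnmb1 was the most abundant of the 4 members and the pore gene was far below it. Kcnmb1 averaged 0.456 ± 0.174 CPM per kilobase of merged exons (SD, n = 16, as for the levels that follow), Lrrc55 0.143 ± 0.119, Kcnma1 0.0179 ± 0.0115 and Kcnmb4 0.0172 ± 0.0231. Kcnmb1 exceeded Lrrc55 and Kcnma1 in 16 of 16 libraries, and Lrrc55 exceeded Kcnma1 in 15 of 16. Kcnma1 and Kcnmb4 did not separate: Kcnma1 was the higher in 9 libraries and Kcnmb4 in 7. Summed over libraries, the level of Kcnmb1 was 25.5 times that of Kcnma1 and that of Lrrc55 was 7.99 times that of Kcnma1. Among 18143 protein-coding genes with counts, Kcnmb1 ranked 11895 by this level, Lrrc55 13450, Kcnma1 15813 and Kcnmb4 15849. The deposited identifier of Lrrc55 (ENSMUSG00000075224.8) is an earlier version than that of GENCODE M21, so the 6474 bases used as its length may not be those counted; with the longest transcript as the length its level was 0.240, and those of Kcnma1 and Kcnmb4 were 0.0251 and 0.0352.

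**Figure D1:**
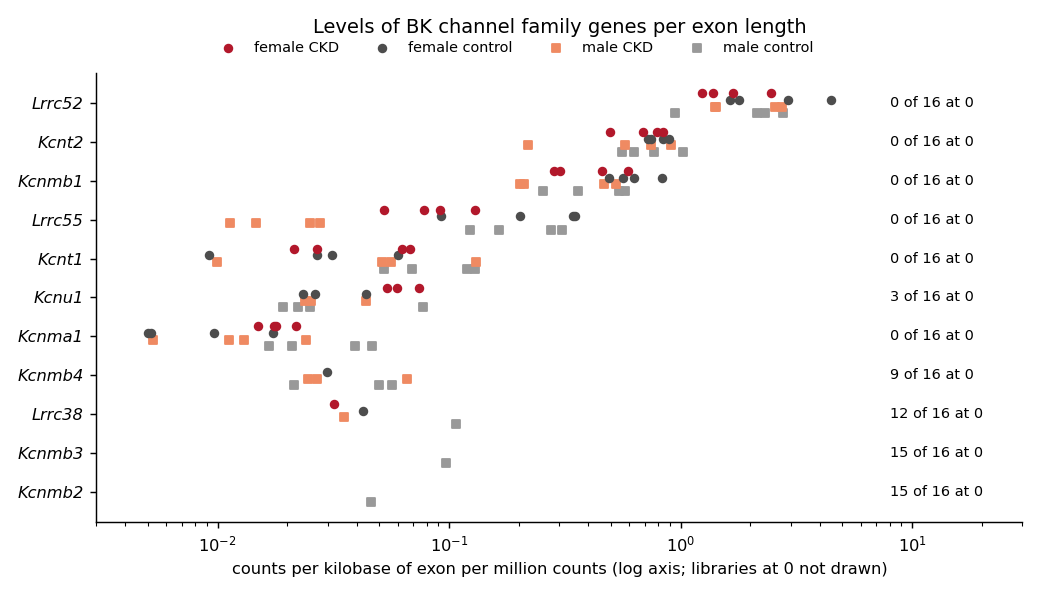
Levels of the BK subunit genes and related channel genes, as CPM per kilobase of exon on a log axis; each point is 1 library, coloured by group, and the number of libraries at 0 is written at the right. Lrrc52 leads with 0.945 to 4.46, and Kcnma1 stays between 0.00501 and 0.0467.

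Related genes from a list of 8 filled in the rest of the family. Lrrc52, another gamma subunit, known mainly from testis, was the most abundant of the BK accessory genes, with 13 to 60 counts a library and a mean of 2.12 ± 0.875 in the same unit per length (SD, n = 16), above Kcnmb1 and Lrrc55 in 16 of 16 libraries. The beta subunit genes Kcnmb2 and Kcnmb3 had 2 counts each, in 1 male control library each, and the gamma subunit gene Lrrc38 had 6. Lrrc26 is not analysed here. Of the relatives of the pore gene, Kcnt2, which encodes a sodium-activated channel, had 947 counts, Kcnt1 110 and the sperm channel gene Kcnu1 23. Lrrc52 and Kcnt2 were the 2 listed genes that could be tested.

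Lrrc55 (chromosome 2, 85162334 to 85197197, minus strand, protein coding) averaged 0.347 ± 0.273 CPM in CKD ventricles and 1.5 ± 0.650 CPM in control ventricles (SD, n = 8 each). Counts were 4, 5, 8 and 9 in female CKD libraries, against 7, 15, 27 and 23 in female controls. Genes on the opposite strand, Gm13713 and Gm13716, share 3.24% and 4.11% of its exon bases. Counts of Lrrc55 were 1, 2, 2 and 1 in male CKD libraries, against 15, 11, 24 and 19 in male controls. The male groups did not overlap, and in females control 1 lay within the range of the CKD mice.

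In CPM, Lrrc55 was 0.340, 0.505, 0.593 and 0.832 in female CKD mice, against 0.595, 1.31, 2.21 and 2.27 in female controls. It was 0.0733, 0.163, 0.179 and 0.0948 in male CKD mice, against 1.07, 0.793, 1.99 and 1.79 in male controls. Of 16400 tested genes, 1.56% had male CKD values all below the male controls, and 2.49% had female CKD values all below the female controls. Summed counts were 32 in CKD libraries (exact 95% Poisson interval 21.9 to 45.2, which covers counting error only) and 141 in controls (119 to 166). The fitted log2 fold change was -2.15 (SE 0.38, 95% interval -2.95 to -1.35) over all mice, the lowest of the 16400 (0.00610% of them at or below it), among which 0.0427% were called lower at an adjusted p under 0.05. These values entered the choice of the gene, which passed the filter only through its control libraries. Over 11 cell type lists, 61 of 76 tested markers had negative fold changes in CKD, against a median of 0.00 log2 units over all genes. All tested markers were negative for fibroblasts (8, median -0.41), endothelial cells (8, median -0.35), smooth muscle cells (9, median -0.14), lymphocytes (5, median -0.58) and red blood cells (5, median -0.36), as were 7 of 8 for pericytes, 6 of 7 for macrophages, 6 of 7 for Schwann cells and nerves, and 4 of 5 for the atrium. Of the cardiomyocyte markers 8 of 9 were positive (median 0.17), and of the adipocyte markers 3 of 5. Of the 76 markers 12 had an unadjusted p under 0.05 and 0 were called, against 15.4% and 0.0854% of all tested genes. Summed, the lymphocyte markers had 5.06 to 7.63 CPM in CKD mice and 6.40 to 10.9 CPM in controls, the fibroblast markers 199 to 1140 CPM in CKD mice and 836 to 1040 CPM in controls, the endothelial markers 359 to 968 CPM in CKD mice and 767 to 1060 CPM in controls, and the pericyte markers 494 to 1550 CPM in CKD mice and 1110 to 1510 CPM in controls; no marker of the 11 lists was at 0 in all libraries. The lowest fibroblast, endothelial and pericyte sums of CKD mice were in males. In female CKD mice the lowest sums were 718, 619 and 1190 CPM. The marker lists were not run without male CKD 4 and female control 2. The part of the markers in the Lrrc55 values was not tested, and in bulk tissue fewer cells of a type and less RNA per cell cannot be told apart.

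**Figure D2:**
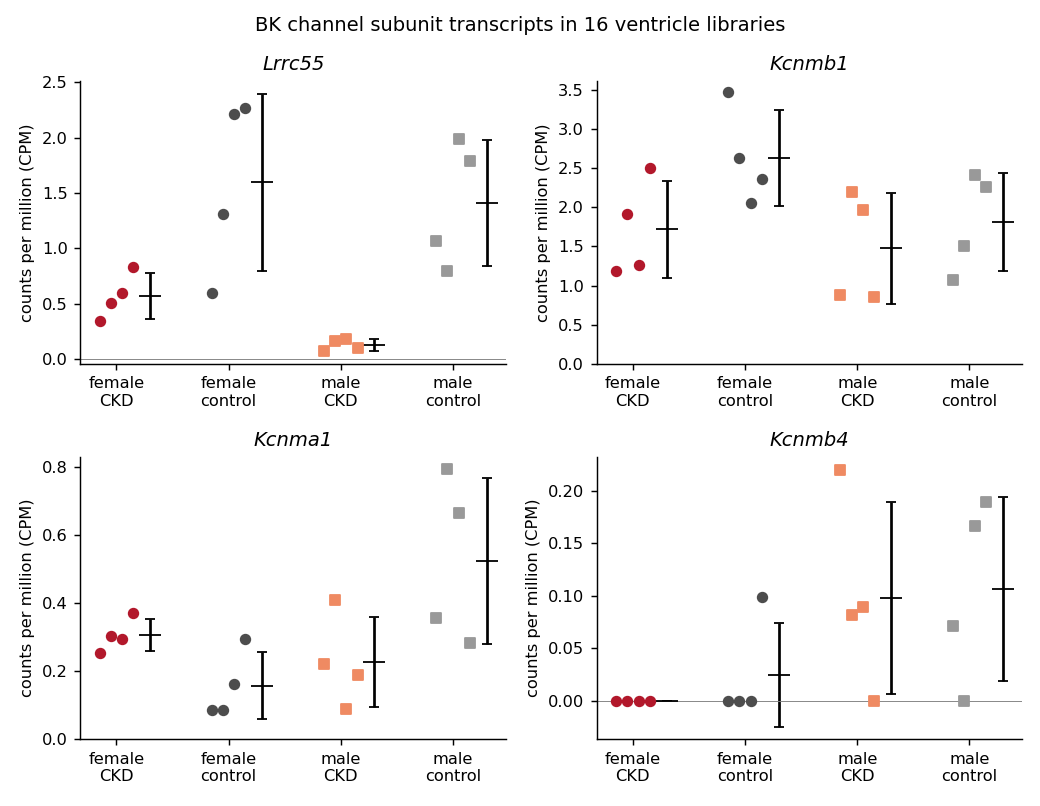
CPM of Lrrc55, Kcnmb1, Kcnma1 and Kcnmb4 in each of the 16 libraries (points) with the mean and SD of the 4 mice beside each group. Lrrc55 in male CKD mice lies between 0.0733 and 0.179 CPM, below every other group, and Kcnmb4 is at 0 in all 4 female CKD mice.

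Lrrc55 is also described in the parts of the series that the titles separate by the number after the letter C. These are the same values that chose the gene, so the parts are no separate support. Among the libraries with number 6, CKD mice had 0.0733 to 0.593 CPM (n = 5) and controls 0.595 to 2.21 (n = 5). Among the libraries with numbers 2, 3 and 5, CKD mice had 0.0948 to 0.832 CPM (n = 3) and controls 1.79 to 2.27 (n = 3). Within either set the arms did not overlap in CPM, but with number 6 they were only 0.593 against 0.595 apart. The counts with number 6 overlapped, at 1 to 8 in CKD mice and 7 to 27 in controls. The share of all genes with such a split was not computed. The labels do not explain that number. Without male CKD 4 and female control 2 the log2 fold change was -2.15.

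The sexes were compared over both arms, which is not the contrast that chose the genes. The comparison within CKD mice and the interaction use the CKD values by which Lrrc55 was chosen. They may therefore not be independent of that choice, and for Lrrc55 their p-values are given as a description and not as support. In CKD mice Lrrc55 averaged 0.567 ± 0.205 CPM in females and 0.127 ± 0.0513 CPM in males (SD, n = 4 each), and every female exceeded every male. The CKD libraries behind this held 4 to 9 counts in females and 1 to 2 in males, under the filter's minimum count. Female values all above male ones were found for 4.07% of the tested genes in CKD mice. In controls the averages were 1.6 ± 0.798 CPM in females and 1.41 ± 0.572 CPM in males, with overlap. An exact two-sided permutation test of log2 CPM gave p = 0.0286 in CKD mice, the smallest that 4 against 4 can give, p = 0.857 in controls, and p = 0.0449 over both arms with sexes exchanged within each arm; 12 such tests were run over the 4 genes, and these p-values are not adjusted. edgeR's quasi-likelihood test with adjustment over all genes called none of these contrasts. The log2 ratio of females to males was 2.08 in CKD mice (SE 0.63, 95% interval 0.74 to 3.42, adjusted p = 0.250), where 0.0427% of all genes were called. It was 0.19 in controls (SE 0.38, adjusted p = 0.880), where 0.0366% were called, and 0.67 over both arms (SE 0.36, adjusted p = 0.253).

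The CKD effect on Lrrc55 was -1.47 log2 units in females (SE 0.43) and -3.36 in males (SE 0.55). The difference between these effects was 1.89 log2 units (SE 0.74, 95% interval 0.32 to 3.46) and was not called by edgeR after adjustment over all genes (unadjusted p = 0.0214, adjusted p = 1). The interaction was called for 0 genes by edgeR, 0% of those tested, and 276 genes (1.68%) had an unadjusted p under 0.05; DESeq2 and limma-voom called 0 too. The male CKD estimate rests on 6 counts in all (exact Poisson interval 2.20 to 13.1). The difference uses the CKD values by which Lrrc55 was chosen, so its p-values are a description. Without male CKD 4 and female control 2 the difference was 1.69 (SE 0.87, adjusted p = 0.953), and the ratio of females to males in CKD mice was 1.96 log2 units (SE 0.75, adjusted p = 0.156).

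Kcnmb1 (ENSMUSG00000020155.2, chromosome 11, 33963013 to 33973641, plus strand, protein coding) overlapped between all groups. It had 1.19, 1.92, 1.26 and 2.50 CPM in female CKD mice, against 3.48, 2.63, 2.05 and 2.36 CPM in female controls. It had 0.879, 2.20, 1.97 and 0.853 CPM in male CKD mice, against 1.07, 1.51, 2.41 and 2.26 CPM in male controls. CKD mice averaged 1.6 ± 0.628 CPM and controls 2.22 ± 0.724 CPM (SD, n = 8 each), a log2 fold change of -0.46 (SE 0.25, 95% interval -0.98 to 0.06). Without male CKD 4 and female control 2 it was -0.39 (SE 0.26).

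Between the sexes Kcnmb1 averaged 2.17 ± 0.751 CPM in females and 1.64 ± 0.648 CPM in males (SD, n = 8 each). Its log2 ratio of females to males was 0.39 (SE 0.25, 95% interval -0.13 to 0.91, edgeR adjusted p = 0.330), and the difference between the CKD effects in females and in males was -0.35 (SE 0.50, adjusted p = 1). Neither Kcnmb1 nor Lrrc55 was called between the sexes, where 0.171% of all tested genes were.

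Kcnmb1 followed the markers of smooth muscle cells from mouse to mouse. Its log2 CPM correlated with the mean of 9 smooth muscle markers, such as the smooth muscle actin Acta2 and myosin Myh11, with Pearson r = 0.881 (permutation p = 1.00e-05, the smallest that 100000 permutations can give) and Spearman rho = 0.850 (permutation p = 1.10e-04; n = 16). Adjusted over the 46 relations computed the p was 4.60e-04. Without the 2 libraries farthest from the median of the markers r was 0.868. With the group means removed r was 0.864 (rho 0.832, adjusted permutation p = 0.00460), and without male CKD 4 and female control 2 as well it was 0.863. Within CKD mice r was 0.868 (exact p = 0.00970) and rho 0.714 (exact p = 0.0576, n = 8). Within controls r was 0.883 (exact p = 0.00258) and rho 0.857 (exact p = 0.0107, n = 8). Endothelial markers (r = 0.678, rho = 0.706) and fibroblast markers (r = 0.677, rho = 0.721) also passed over the 16 libraries, each with an adjusted permutation p of 0.0202, but not with the group means removed (adjusted p = 0.130 each). Pericyte markers had r = 0.601 (adjusted permutation p = 0.0681). Within CKD mice rho exceeded the smooth muscle value for endothelial and nerve (0.833 each), pericyte and fibroblast (0.762 each) and macrophage markers (0.738). In controls those lists had rho of -0.0476 to 0.333. Red blood cell markers had the same rho in controls as smooth muscle markers, 0.857 (exact p = 0.0107), with r = 0.653 (exact p = 0.0756). Their rho in CKD mice was 0.381. Cardiomyocyte markers had r = 0.764 in controls (exact p = 0.0251, rho 0.571) and r = -0.227 in CKD mice. The libraries share their scaling, which both values use.

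**Figure D3:**
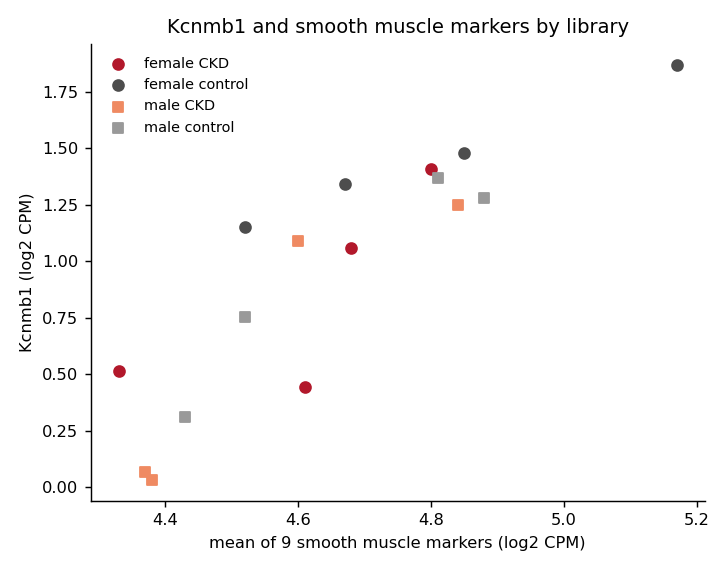
Kcnmb1 (log2 CPM, vertical) against the mean log2 CPM of 9 smooth muscle markers (horizontal), 1 point a library, coloured by group. The points run from the lower left to the upper right, and Pearson r is 0.881 over the 16 libraries.

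Summed over the 9 smooth muscle markers, all of which had counts, the level was 358 to 577 CPM in CKD mice (median 469) and 413 to 750 CPM in controls (median 553). The markers weigh unequally in this sum: Acta2 and Synpo2 had medians of 134 and 133 CPM, and Cnn1 had 2.68 CPM. The correlation used the mean log2 CPM, in which the 9 genes weigh equally. The share of other cell types in these markers was not tested. All 9 had negative fold changes in CKD (median -0.14 log2 units, against 0.00 over all tested genes), and 0 were called by edgeR after adjustment over all genes, with 1 at an unadjusted p under 0.05, where all tested genes had 0.0854% and 15.4%. The part of this level in the Kcnmb1 values was not tested.

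Kcnma1 (ENSMUSG00000063142.15, chromosome 14, 23289431 to 24014491, minus strand, protein coding) had 3, 3, 4 and 4 counts in female CKD libraries, against 1, 1, 2 and 3 in female controls. It had 3, 5, 1 and 2 counts in male CKD libraries, against 5, 11, 8 and 3 in male controls. The arms lay in opposite orders in the sexes, with overlap in both. Summed, the counts were 14 in female CKD mice (exact Poisson interval 7.65 to 23.5) and 7 in female controls (2.81 to 14.4), and 11 in male CKD mice (5.49 to 19.7) and 27 in male controls (17.8 to 39.3). Male controls were the highest of the 4 groups; between female and male controls an exact permutation test gave p = 0.0571. In an edgeR fit of all 33399 genes with no filter, the difference between the CKD effects in females and in males was 2.08 log2 units (SE 0.84, unadjusted p = 0.0180, adjusted p = 1).

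Of the 11 marker lists, the adipocyte one passed with Kcnma1. The correlation with the mean of 5 adipocyte markers was r = 0.712 (permutation p = 0.00195) and rho = 0.709 (permutation p = 0.00281, n = 16), with an adjusted p of 0.0202. It was 0.643 without the 2 libraries farthest from the median, and 0.787 with the group means removed (rho 0.803, adjusted p = 0.0338). With group means removed and without male CKD 4 and female control 2 it was 0.839. In the CKD arm r was 0.852 (exact p = 0.00345) and rho 0.881 (exact p = 0.00724, n = 8), and in the control arm r was 0.782 (exact p = 0.0245) and rho 0.667 (exact p = 0.0831, n = 8). The Kcnma1 values behind it are 1 to 11 counts. The summed adipocyte level was 332 to 747 CPM in CKD mice (median 451) and 403 to 560 CPM in controls (median 492), mostly from Fabp4, which endothelial cells also express. The correlation used the mean log2 CPM, in which the 5 genes weigh equally, and not this sum. Fabp4 had 324 to 724 CPM and Plin1 0.0894 to 4.24 CPM. Adipoq, the adiponectin gene, had 0.447 to 7.26 CPM, and Ucp1, of brown fat, 0 to 13.2 CPM. The correlation of Kcnma1 with the smooth muscle markers was -0.160 (rho -0.0882, adjusted permutation p = 0.670). Its sign differed between the arms, and neither arm passed the threshold. In CKD mice r was 0.455 (exact p = 0.261) and rho 0.667 (exact p = 0.0831). In controls r was -0.493 (exact p = 0.216) and rho -0.667 (exact p = 0.0831).

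Kcnmb4 (ENSMUSG00000054934.10, chromosome 10, 116417861 to 116473878, minus strand, protein coding) had counts mainly in males. Female CKD libraries had 0 counts in all 4 mice (exact Poisson interval 0 to 3.69 over the group), and female controls had 0, 0, 0 and 1. Male CKD libraries had 3, 1, 1 and 0 counts, and male controls 1, 0, 2 and 2. Females together had 1 count (exact Poisson interval 0.0253 to 5.57) and males 10 (4.80 to 18.4). The exact permutation test over both arms gave p = 0.0265 on log2 CPM, not adjusted over the 12 tests, and the edgeR fit with no filter gave a log2 ratio of females to males of -2.38 (SE 0.87, adjusted p = 0.158). CKD libraries had 5 counts and controls 6. Against nerve and Schwann cell markers its correlation was 0.294 (rho 0.102, adjusted permutation p = 0.514).

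Lrrc55 lies next to Aplnr, the gene of the apelin receptor, which was the ninth lowest tested gene by CKD fold change. Aplnr (ENSMUSG00000044338.9, chromosome 2, 85136225 to 85139923, plus strand) is separated from it by 22411 bases. It had 7.05, 10.5, 16.4 and 38.6 CPM in female CKD mice, against 35.9, 29.3, 39.4 and 33.5 CPM in female controls. It had 6.82, 17.4, 12 and 11.2 CPM in male CKD mice, against 20.5, 26.6, 79.2 and 62.9 CPM in male controls. The female groups overlapped through female CKD 4, and the male groups did not overlap. The log2 fold change was -1.46 (SE 0.35), and edgeR did not call it (adjusted p = 0.0946). Without female CKD 4 it was -1.82 (SE 0.29) and called (adjusted p = 0.0140). With the title number as a factor it was -1.48 (SE 0.28) and called too (adjusted p = 0.0416), and among the libraries with number 6 alone it was -1.51 (SE 0.23, adjusted p = 0.0602). The other protein-coding gene within 100 kilobases, Tnks1bp1, 89286 bases away, had -0.46 (SE 0.33, adjusted p = 0.513).

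The relation of Lrrc55 to Aplnr from library to library did not pass the threshold within the arms. As the arms differ in both genes, the relation is given within them: r was 0.608 in CKD mice (exact p = 0.103; rho 0.524, exact p = 0.197) and 0.502 in controls (exact p = 0.207; rho 0.452, exact p = 0.267). With the group means removed r was 0.622 over the 16 libraries (permutation p = 0.00496; rho 0.688, permutation p = 0.00675; adjusted p = 0.0761), and 0.543 without the 2 libraries farthest from the median. Of the 11 marker lists none passed with Lrrc55 once group means were removed. Fibroblast markers had the lowest permutation p of r (r = 0.402, rho = 0.559, adjusted permutation p = 0.130). Adipocyte markers had a higher r (0.423, adjusted permutation p = 0.293), and pericyte markers a higher rho (0.600, with r = 0.384 and an adjusted permutation p of 0.250).

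**Figure D4:**
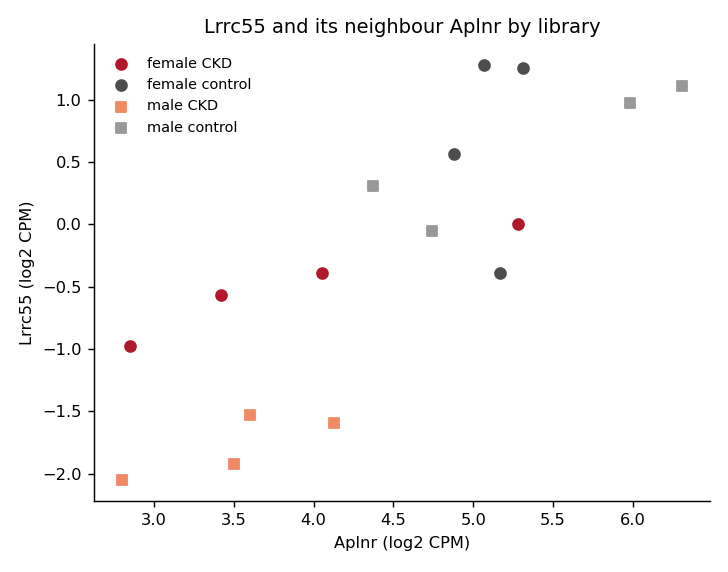
Lrrc55 against Aplnr, both in log2 CPM, 1 point a library, coloured by group. Male CKD libraries lie lowest in Lrrc55, and r is 0.608 within CKD mice and 0.502 within controls.

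The related genes are given as a description. Lrrc55 was chosen by its CKD effect, so its place below them was set in advance. In females the 95% intervals of Lrrc55 (-2.38 to -0.56) and Lrrc52 (-1.47 to 0.12) overlapped. The gamma subunit gene Lrrc52 had 2.13 ± 0.705 CPM in CKD mice and 2.71 ± 1.21 CPM in controls (SD, n = 8 each), with a log2 fold change of -0.35 (SE 0.27, 95% interval -0.91 to 0.22, edgeR adjusted p = 0.547). Kcnt2 had -0.23 (SE 0.21, adjusted p = 0.611). By sex, Lrrc52 had -0.67 in females (SE 0.38) and -0.02 in males (SE 0.37). Kcnt2 had -0.18 in females (SE 0.31) and -0.29 in males (SE 0.31). No test of the difference between genes was made.

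**Figure D5:**
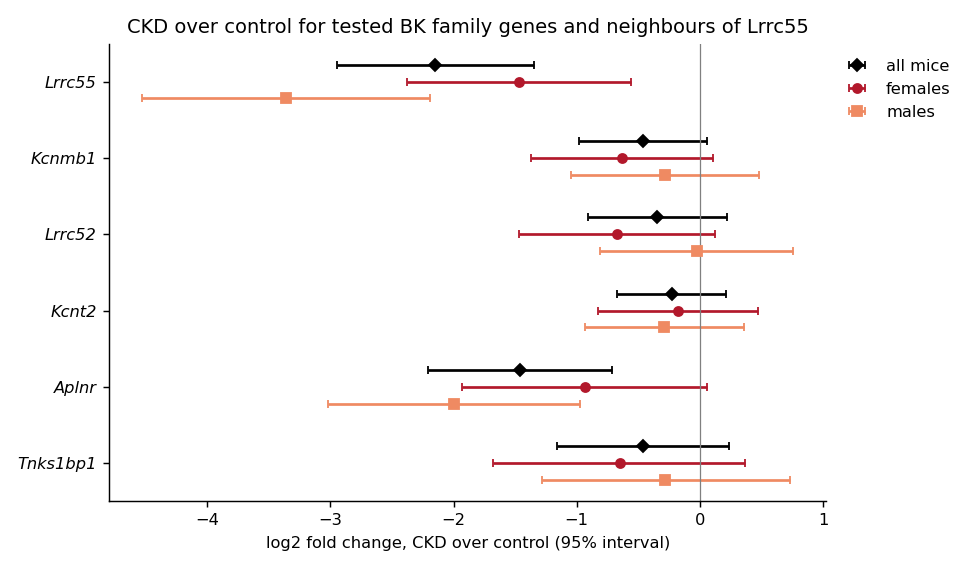
Log2 fold change of CKD over control with 95% intervals, over all mice (diamonds), in females (circles) and in males (squares), for the tested BK family genes and the protein-coding neighbours of Lrrc55. Lrrc55 is at -2.15 over all mice and -3.36 in males, and Kcnmb1 is at -0.46 over all mice.

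The genes that act on BK channels were not called in CKD. Of 10 genes of nitric oxide and cyclic GMP signalling, ubiquitin ligases and scaffolds (among them Prkg1, the cyclic GMP kinase that phosphorylates the pore, and Nos3, the endothelial nitric oxide synthase), 0 were called higher and 0 lower, with a median log2 fold change of -0.08, and 0 had an unadjusted p under 0.05. Prkg1 had 0.08 (SE 0.28) and Nos3 -0.23 (SE 0.28). Of 11 genes of calcium entry and release that can feed BK channels, 10 were tested and 0 called. Of the 10, 9 were negative, with a median of -0.13, and 2 had an unadjusted p under 0.05. Among them, picked out by its value, was the ryanodine receptor gene Ryr3 (-0.78, SE 0.22, edgeR adjusted p = 0.123). Over all tested genes 0.0854% were called and 15.4% had an unadjusted p under 0.05. Between the sexes 0 of the 22 tested genes of these lists and the family list were called. Of the 76 tested markers 0 were called between the sexes, with 11 at an unadjusted p under 0.05, against 25.2% of all tested genes; 5 of the 11 were the 5 red blood cell markers, higher in females.

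The genes whose log2 CPM was most like that of Lrrc55 over the 16 libraries were Gbp3 (r = 0.885), Mfap4 (0.865), Kit (0.863) and Gbp4 (0.860), out of 11401 compared; with group means removed the values were 0.808, 0.622, 0.836 and 0.580. Gbp3 and Gbp4 encode interferon-induced GTPases, Mfap4 a microfibril protein and Kit a receptor tyrosine kinase. Aplnr ranked 13 with 0.825. For Kcnmb1 they were Higd1b (0.888), which is a pericyte marker, the laminin gene Lama4 (0.881), Arhgap1 (0.857) and Fam198b (0.855), with 0.835, 0.823, 0.802 and 0.824 when group means were removed. These are a description over libraries that share their scaling and their arms, and the best of many. For Kcnma1 and Kcnmb4 the highest values were 0.741 and 0.819, over 1 to 11 and 0 to 3 counts a library. The genes were Tcta (0.741), Rpp40 (0.693), Uchl4 (0.686) and Cytip (0.678) for Kcnma1, and Spi1 (0.819), Sh3bgrl3 (0.796), Igfbp4 (0.794) and Edem2 (0.785) for Kcnmb4.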

How the data were processed

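The authors deposited a table of raw counts, with no normalization, for all 16 libraries of total RNA from ventricles (50 bp paired-end reads, per the labels' protocols). Per the submitters' processing notes the tools include STAR 2.6.1d, featureCounts, Subread 1.6.3 and DESeq2 1.30.1, with mm10; the sources used here give neither the annotation release nor the strand setting nor the treatment of multi-mapped reads. Identifiers were matched to GENCODE M21 (33367 of 33399). Counts were filtered with filterByExpr (minimum count 10, total 15; 16400 genes kept), scaled by TMM and tested with edgeR 4.0.16 (quasi-likelihood, Benjamini-Hochberg, threshold 0.05): CKD with sex as covariate, sex with treatment as covariate, and contrasts of a 4-group model. The procedure was tested on simulated data. Groups come from the sample titles; replicate numbers follow record order and only name a sample. Log2 CPM used a prior count of 2. Libraries of a group differed by at least 7.78 chi-square units per degree of freedom. The members, lists and tests were chosen with earlier results of these data known. The rule for named genes took the 4 members, the family list, genes of other lists past the threshold (there were none), protein-coding neighbours of Lrrc55 within 100 kilobases, and for each member the 4 genes with the highest correlation (no predicted genes); values of 1 listed gene are not reported here. Prkg1, Nos3, Ryr3 and single markers were named outside this rule, after their values were seen. Alternatives were other scalings, filters and tools (DESeq2 1.42.0, limma 3.58.1), title code number, GC trend and left-out libraries.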

Additional observations from a re-analysis of the deposited data

Results flagged for a closer look

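Kcnmb4 in female control 4 had 0.0985 CPM, which is 1 count, and the other 3 female controls had 0. With 3 values tied at 0, Dixon's ratio is 1 for any single count, so this says nothing of an outlying library. In the rest of the 23 groups examined, those of the 4 members, Lrrc52 and Aplnr that were not all at 0, no library passed the critical value.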

How the results depend on the processing

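The log2 fold change of Lrrc55 ran from -2.39 to -1.85 over 26 alternatives, and the stricter filter removed the gene. That of Kcnmb1 ran from -0.62 to -0.37 over 27. No sex difference or interaction of either gene was called where an alternative gave an adjusted p, which DESeq2 did not for Lrrc55 between the sexes (unadjusted p = 0.0429) or within CKD (0.00432) or for Kcnmb1 within CKD (0.593), and the stricter filter did not for Lrrc55. The adjusted p ran from 0.0766 to 0.602 for Lrrc55 within CKD and from 0.872 to 1 for its interaction. The sex difference of Kcnmb1 within CKD changed sign with limma-voom (-0.09) and without male CKD 4 and female control 2 (-0.01), and ran from -0.03 to 0.46 with 1 library left out, the lowest without female CKD 4. Aplnr was also called by DESeq2 (adjusted p = 0.00555), limma-voom (0.0400), with no filter (0.0151) and with the title code number as a factor (0.0416); over its alternatives the adjusted p ran from 0.00555 to 0.222. The correlation of Lrrc55 with Aplnr fell below the threshold with group means removed (0.622).

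The 14 genes called for CKD became 398 with DESeq2, 199 with limma-voom, 53 with no filter, 234 with the title code number as a factor, 8 among libraries with number 6, 22 without male CKD 4 and female control 2, and 22 with GC trends removed, and ran from 6 to 43 with 1 library left out. The 28 called between the sexes became 48 with upper-quartile scaling, 1446 with DESeq2, 2717 with limma-voom, 616 with no filter, 15 with the title code number, 16 among number 6, and 12 with GC trends removed, and ran from 8 to 1461 with 1 library left out. The cause was not tested. Counting error limits Kcnma1, Kcnmb4 and Lrrc55 in male CKD mice. No paired analysis was possible because the labels give no replicate numbers that pair libraries 1 to 1; the title number, which groups share, was a factor in the fit that called 234 genes.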

Other observations

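Exons of genes on the opposite strand overlap those of 3 members, and reads of both strands cannot be told apart where strand was not used in counting. Gm13716 shares 266 exon bases with Lrrc55, or 4.11% of its exons, and had 7 counts in CKD libraries (exact Poisson interval 2.81 to 14.4) and 22 in controls (13.8 to 33.3). Gm13713 shares 210 bases with Lrrc55 and had 6 counts in CKD libraries and 9 in controls. Kcnmb4os1 and Kcnmb4os2, which share 355 and 693 exon bases with Kcnmb4, had 1 count each over the 16 libraries.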
